A study of Homo sapiens with 6 samples.

Results

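DNA replication in a dividing cell needs 3 sets of proteins, those that prepare origins, those that start them and those that copy the DNA at the fork. The 55 genes described here encode these proteins, and they were picked by name from 67140 gene identifiers in the count table of KYSE150 cells, an established line of esophageal squamous cell carcinoma. They fell into 15 licensing genes, 12 firing genes, 27 elongation genes and MCM8, which encodes a helicase outside the MCM2-7 ring. Each of the 55 had a matching identifier and was kept by the filter on low counts, as were 19254 genes in all. RNA-seq of poly-A RNA had been made from 3 samples carrying a control short hairpin RNA (shCtrl) and 3 samples carrying a hairpin against the long noncoding RNA AC007128.1 (shAC007128.1). Both were stable lines in the same parental cells, made with lentivirus and puromycin selection and grown in the same medium with fetal bovine serum. One hairpin and one control hairpin were used, and no source says whether the 3 samples of a group were separate cultures, so p-values measure only the spread between these samples.

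In G1 the origin recognition complex, ORC1 to ORC6, binds origins and, with CDC6 and CDT1, loads the MCM2-7 ring, while geminin (GMNN) holds CDT1 in check after S phase begins. At the start of S phase the kinases CDC7-DBF4 and CDK2 with cyclin E, acting with TICRR, TOPBP1 and MCM10, turn the loaded ring into the active helicase, which holds MCM2-7, CDC45 and the 4 GINS subunits. Forks then copy DNA with polymerases alpha, delta and epsilon on the sliding clamp PCNA, and RPA, fork protection proteins, Okazaki fragment enzymes and the chromatin assembly factor travel with them. Transcripts of many of these genes are known to rise as cells approach S phase, under E2F factors. In bulk RNA, a larger share of cells in late G1 and S phase and more RNA of these genes in each cell cannot be told apart.

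Replication gene transcripts were higher in the shAC007128.1 samples across nearly the whole set. The summed level of the 55 genes was 3092, 3045 and 3038 CPM (counts scaled to library size with TMM factors) in the 3 shCtrl samples and 5878, 5813 and 6023 CPM in the 3 shAC007128.1 samples. A gene was called where edgeR's quasi-likelihood test gave an adjusted p (Benjamini-Hochberg) no greater than 0.05 and the change was 1 or more on the log2 scale. By this limit 29 of the 55 genes were called higher and 0 lower, beside 5.57 percent of all genes tested called higher and 10.1 percent called lower. With adjusted p alone, 49 rose and 1, ORC5, fell, beside 21 percent and 19.8 percent of all genes tested. The 5 that did not pass were ORC2, ORC4, CDC7, CCNE1 and PRIM1. The samples of the groups did not overlap for 50 genes that were higher and 1 that was lower, beside 27 percent and 28.2 percent of all genes tested. The median log2 fold change of the 55 was 1.05, against -0.02 for all genes tested, whose quartiles were -0.59 and 0.45.

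**Figure D1:**
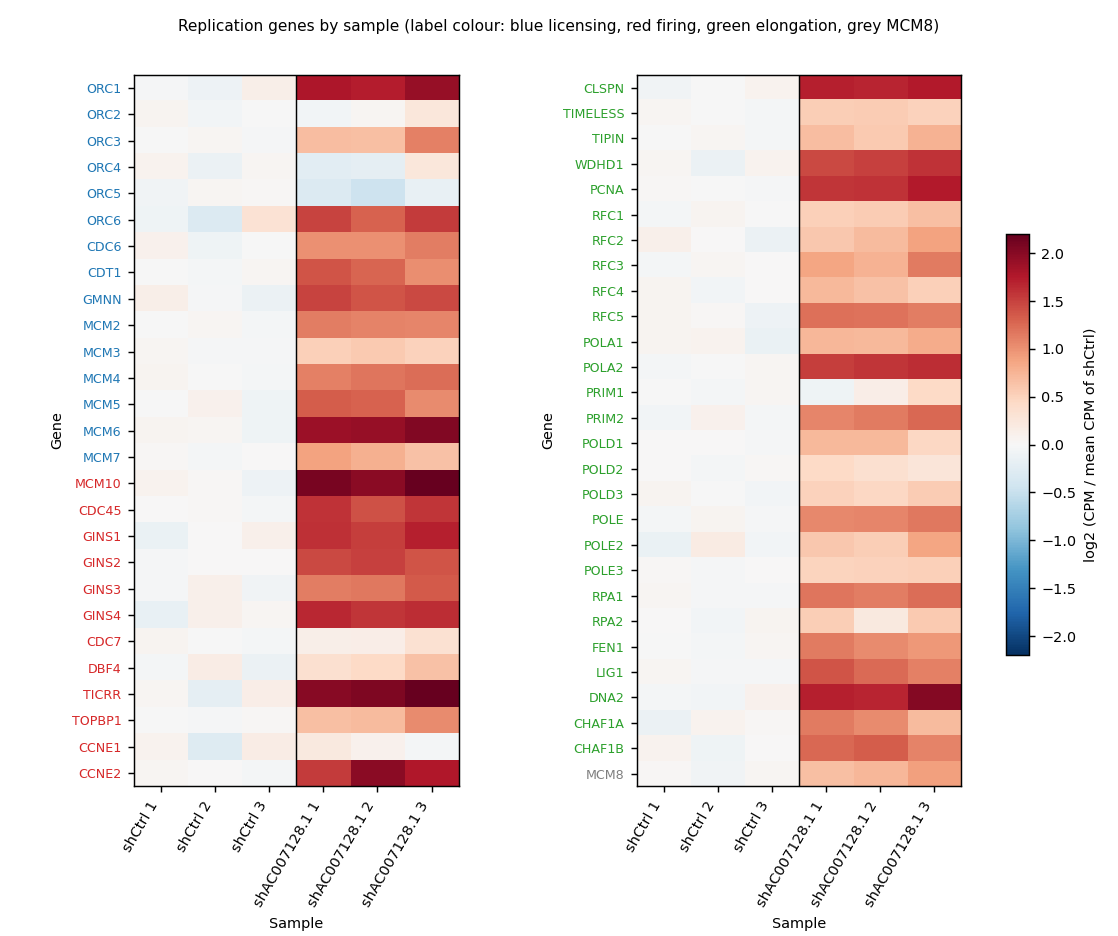
Level of each of the 55 genes in each of the 6 samples, as the log2 ratio to the mean of the 3 shCtrl samples, with genes in rows by role and samples in columns. The shAC007128.1 columns are above the shCtrl mean for most genes, and ORC2, ORC4, ORC5, CDC7, CCNE1 and PRIM1 stand out as rows with little or no gain.

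The AC007128.1 transcript itself was weakly detected and gave only a poor check of the labels. Its counts were 69, 33 and 53 in the shCtrl samples and 18, 37 and 15 in the shAC007128.1 samples, so the groups overlapped. The log2 fold change was -0.77 ± 0.51 (SE, n = 3 per group, edgeR adjusted p = 0.271), and the two-sided exact permutation test gave p = 0.2, where 0.1 is the smallest this design allows. The change in AC007128.1 level was -1.29 without shAC007128.1 replicate 2 and -0.51 without shCtrl replicate 1, and no sample left out made it pass. Depth was 55764405 to 78610457 counts per sample. The lowest count of any of the 55 genes in a sample was 152, and all 55 were kept by the filter on low counts. Replicate 3 of shAC007128.1 differed more from its group, with a chi-square per degree of freedom of 107 and 84.2 against replicates 1 and 2, which differed from each other by 43.3, and 35 of the 55 genes were highest in it among the 3. Without that sample 28 of the 29 genes were called higher, CDC6 was not and CHAF1A was. Of the squamous markers, KRT5, KRT14, KRT6A, KRT17, TP63, DSG3 and SFN were all detected and summed to 1457 to 1472 CPM in shCtrl and 2058 to 2782 CPM in shAC007128.1, with KRT14 called higher at 2.28 and KRT6A at 2.46 on the log2 scale, DSG3 called lower at -1.09 and TP63 at -0.27, which did not pass. Leukocyte markers summed to 59.1 to 68.0 CPM in shCtrl and 14.5 to 23.9 CPM in shAC007128.1, nearly all of it CD68, with PTPRC near 0. The 6 fibroblast markers summed to 14.8 to 15.9 and 20.8 to 23.6 CPM, most of it COL1A1, and the 3 endothelial markers to 2.12 to 3.11 and 0.302 to 2.02 CPM. The part of these differences in the replication genes was not tested.

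Firing genes had the largest median change of the 3 sets. Of the 12 firing genes, 8 were called higher and 10 rose by adjusted p, with a median log2 fold change of 1.49. Among the 15 licensing genes 9 were called higher, 12 rose and 1 fell, and the median was 1.10. For the 27 elongation genes 12 were called higher and 26 rose, with a median of 0.93. The per-sample medians, taken as log2 ratios to the shCtrl mean, were 1.49, 1.45 and 1.48 for firing, 1.10, 1.09 and 1.08 for licensing and 0.87, 0.76 and 0.88 for elongation in the 3 shAC007128.1 samples. The order of these medians was the same in each of the 3 samples. They share the same genes and the same shCtrl mean, so this is no separate evidence of the order. The spread between genes of a set was wide, from -0.30 to 1.95 in licensing, 0.09 to 2.11 in firing and 0.18 to 1.80 in elongation. The difference between sets was not tested. Summed levels went from 1179 to 1221 CPM in shCtrl up to 2240 to 2262 CPM in shAC007128.1 for licensing, from 324.8 to 330.6 up to 730.8 to 831.1 CPM for firing, and from 1474 to 1493 up to 2755 to 2839 CPM for elongation.

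**Figure D2:**
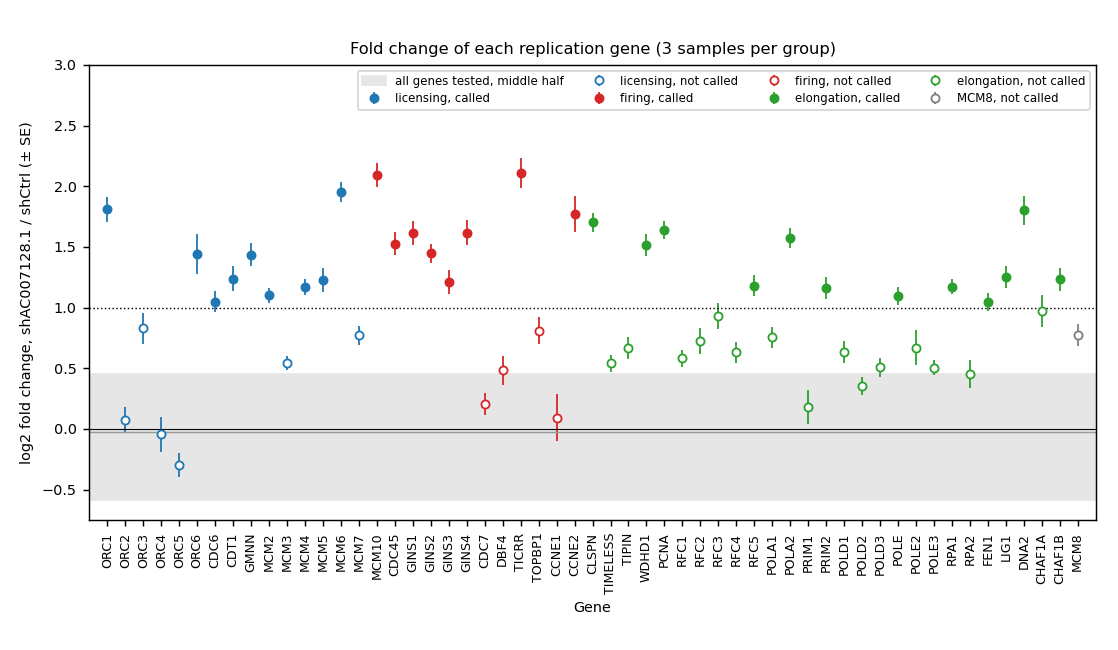
Log2 fold change of shAC007128.1 over shCtrl for each of the 55 genes, with its SE as the bar, grouped by role. Filled points were called, the dotted line marks a log2 fold change of 1, and the grey band runs between the quartiles of all genes tested. Most genes lie above the band, with TICRR and MCM10 the highest at 2.11 and 2.09, and ORC5 at -0.30 the lowest.

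Since many S phase genes carry E2F sites just upstream of their start, the promoter sequences of the genes were searched. RefSeq windows of 300 bases on GRCh38.p14, from 250 bases before to 50 bases after the start, were available for 48 of the 55. The E2F letters TTTCCCGC, TTTCGCGC, TTTGCCGC and TTTGGCGC were searched on both strands, where matches can overlap. Only exact letters counted, so a window without a match can still hold a site that differs in a base. At least 1 match was found in 20 of the 48 windows, or 41.7 percent, against 3.37 percent of all 27305 RefSeq promoters and 5.17 percent of the 11990 promoters of genes tested. In the 4 other lists of replication genes described below, 7 of 44 windows had a match, 15.9 percent. Matches were in 7 of 13 licensing, 4 of 10 firing and 8 of 24 elongation windows, and in that of MCM8. Genes with a match had a median log2 fold change of 1.07 and those without 0.85, and 11 of the 20 and 13 of the 28 were called higher. The letters are a description of the sequence and were not shown to be bound.

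The windows of 4 genes are shown, those of the gene with the smallest p in each of licensing (MCM6), firing (MCM10) and elongation (PCNA), and of the licensing gene with the largest p (ORC4). Capitals mark E2F letters on either strand.
MCM6 promoter, chr2:135876394-135876693, minus strand: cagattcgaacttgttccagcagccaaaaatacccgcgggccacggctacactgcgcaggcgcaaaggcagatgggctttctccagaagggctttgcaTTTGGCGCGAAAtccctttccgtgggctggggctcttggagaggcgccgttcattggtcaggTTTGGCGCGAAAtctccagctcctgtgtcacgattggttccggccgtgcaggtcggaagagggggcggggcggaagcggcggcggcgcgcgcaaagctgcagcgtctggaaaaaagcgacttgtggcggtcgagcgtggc
MCM10 promoter, chr10:13161308-13161607, plus strand: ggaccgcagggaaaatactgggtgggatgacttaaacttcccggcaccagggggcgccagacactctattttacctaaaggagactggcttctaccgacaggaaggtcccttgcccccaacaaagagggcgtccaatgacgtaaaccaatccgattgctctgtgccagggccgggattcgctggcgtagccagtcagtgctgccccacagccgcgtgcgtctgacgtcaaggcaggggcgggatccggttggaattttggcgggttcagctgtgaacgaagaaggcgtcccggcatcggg
PCNA promoter, chr20:5119909-5120208, minus strand: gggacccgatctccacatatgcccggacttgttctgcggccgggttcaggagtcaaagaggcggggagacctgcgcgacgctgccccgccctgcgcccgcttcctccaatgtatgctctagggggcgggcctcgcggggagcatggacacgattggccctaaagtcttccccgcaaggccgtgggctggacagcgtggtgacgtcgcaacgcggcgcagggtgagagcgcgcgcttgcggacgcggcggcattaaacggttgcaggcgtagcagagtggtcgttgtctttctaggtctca
ORC4 promoter, chr2:148020688-148020987, minus strand: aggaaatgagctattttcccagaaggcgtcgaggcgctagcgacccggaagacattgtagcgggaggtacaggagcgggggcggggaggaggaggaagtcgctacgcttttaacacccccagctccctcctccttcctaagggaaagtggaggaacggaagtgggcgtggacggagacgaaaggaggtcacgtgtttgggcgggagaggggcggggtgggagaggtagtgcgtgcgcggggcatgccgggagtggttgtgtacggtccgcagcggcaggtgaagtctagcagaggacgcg

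In the MCM6 window the letters occurred at 2 places, each with overlapping matches on the 2 strands, the first bases lying 152 and 90 bases before the start. MCM10, with a log2 fold change of 2.09, had no exact match, though letters that differ only in the last base lie near its start. PCNA had no exact match in the window at its main start, while a further PCNA window at chr20:5126573-5126872 held 1. ORC4, which did not change by the test, also had none. Among the genes, 27 matches lay from 187 bases before to 27 bases after the start, and 15 of them, 55.6 percent, were within 50 bases of it, against 30.3 percent of the 965 matches in all promoters. The highest genes without a match included TICRR at 2.11 and the smallest change with a match was that of MCM3 at 0.54. The CCAAT box was in 25 of the 48 windows, 52.1 percent, against 35.7 percent of all promoters and 36.3 percent of promoters of genes tested. It was also in 25 of 44 windows of the 4 other lists of replication genes, 56.8 percent, so this share is not particular to the 48. The cell cycle homology region (CHR) letters TTTGAA and TTCGAA were in 2 windows, 4.17 percent, that of MCM6 among them. The share was 16.3 percent of all promoters and 11.1 percent of promoters of genes tested.

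The 6 ORC subunits did not move together. Here and in what follows, changes are log2 fold changes of shAC007128.1 over shCtrl, with the SE after the ± sign. ORC1, at chr1:52372829-52404423 on hg38, is an ATP-binding subunit whose level is known to vary over the cell cycle. ORC1 was at 14.4, 13.5 and 16.04 CPM in the shCtrl samples and 50.2, 48.4 and 55.3 CPM in the shAC007128.1 samples. All shAC007128.1 values exceeded all shCtrl values, and the log2 fold change was 1.81 ± 0.11 (SE, n = 3 per group, adjusted p = 4.28e-05). ORC6, the smallest subunit, was at 17.4, 15.1 and 22.98 CPM in the shCtrl samples and 51.6, 45.3 and 53.7 CPM in the shAC007128.1 samples, a log2 fold change of 1.44 ± 0.17 (SE, n = 3 per group, adjusted p = 5.52e-04). ORC3 rose by less than the limit for a call, with a log2 fold change of 0.83 ± 0.13 (SE, n = 3 per group, adjusted p = 0.0023). ORC2 overlapped between groups at 0.08 ± 0.10 (adjusted p = 0.569). ORC4 at chr2:147930396-148021604 was at 49.5, 42.98 and 48.3 CPM in the shCtrl samples and 39.9, 41.03 and 55.4 CPM in the shAC007128.1 samples. Its groups overlapped, and its log2 fold change of -0.05 ± 0.14 (SE, n = 3 per group, adjusted p = 0.825) was the smallest in size of the 55. ORC5 at chr7:104126341-104208047 was the only one of the 55 genes to fall by adjusted p, with 41.97, 45.7 and 45.4 CPM in the shCtrl samples and 36.02, 32.5 and 39.7 CPM in the shAC007128.1 samples. Its groups did not overlap, and the log2 fold change was -0.30 ± 0.10 (SE, n = 3 per group, adjusted p = 0.0491). That adjusted p was close to the limit and ranged from 0.0142 to 0.154 over 14 alternative fits, passing in 6, and the fall did not pass when any sample other than replicate 3 of shAC007128.1 was left out (0.0798 to 0.154).

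On a per-length scale, TMM-scaled CPM per kb of exons, the composition of ORC transcripts shifted. ORC1 was at 4.598, 4.33 and 5.14 in the shCtrl samples and 16.1, 15.5 and 17.7 in the shAC007128.1 samples. ORC6 was at 4.04, 3.51 and 5.33 in the shCtrl samples and 11.96, 10.5 and 12.5 in the shAC007128.1 samples. ORC2 was at 13.3, 12.3 and 12.6 in the shCtrl samples and 12.1, 13.04 and 15.1 in the shAC007128.1 samples. These are levels, and they place ORC1 and ORC6 below ORC2 in every shCtrl sample. ORC3 was at 9.696, 10.01 and 9.56 in the shCtrl samples and 15.6, 15.4 and 20.98 in the shAC007128.1 samples. ORC4 was at 5.55, 4.82 and 5.41 in the shCtrl samples and 4.48, 4.602 and 6.22 in the shAC007128.1 samples. ORC5 was at 11.3, 12.3 and 12.2 in the shCtrl samples and 9.67, 8.73 and 10.7 in the shAC007128.1 samples. In shCtrl the order was ORC2, ORC5, ORC3, ORC4, ORC1 and ORC6, where ORC2 and ORC5 overlapped. There ORC4, ORC1 and ORC6 each overlapped with one another. In shAC007128.1 the order was ORC3, ORC1, ORC2, ORC6, ORC5 and ORC4, where ORC3 and ORC1, ORC2 and ORC6, and ORC6 and ORC5 overlapped. The mean level of ORC1 and ORC6 over that of ORC2 to ORC5 was 0.434, 0.398 and 0.527 in shCtrl. In shAC007128.1 it was 1.34, 1.25 and 1.14. ORC1 and ORC6 were the only ORC genes called higher, so this ratio restates their rise and is no separate evidence of a shift. With the longest transcript as length these ratios were 0.406 to 0.568 and 1.14 to 1.35, although the order of single subunits changed.

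The factors that load the MCM ring and their inhibitor all rose past the limit. GMNN, the inhibitor of CDT1, at chr6:24774931-24786099, was at 39.8, 35.6 and 33.3 CPM in the shCtrl samples and 101, 94.5 and 98.6 CPM in the shAC007128.1 samples. The groups were far apart, with a log2 fold change of 1.44 ± 0.09 (SE, n = 3 per group, adjusted p = 5.54e-05). CDT1, the loader, at chr16:88803789-88809258, was at 49.4, 48.4 and 51.2 CPM in the shCtrl samples and 129.9, 121 and 101 CPM in the shAC007128.1 samples, with the lowest of the shAC007128.1 values in replicate 3, and its log2 fold change was 1.24 ± 0.11 (SE, n = 3 per group, adjusted p = 1.63e-04). CDC6, the ATPase that joins ORC to the ring, rose by 1.05 ± 0.09 (adjusted p = 1.35e-04), at the edge of a call. Both CDT1 and GMNN rose, and the ratio of their per-length levels was 1.11, 1.22 and 1.38 in shCtrl and 1.15, 1.15 and 0.917 in shAC007128.1, which overlap. Per kb, CDT1 was at 17.9, 17.5 and 18.6 in the shCtrl samples and 47.05, 43.9 and 36.5 in the shAC007128.1 samples. On that scale GMNN was at 16.1, 14.4 and 13.4 in the shCtrl samples and 40.9, 38.2 and 39.8 in the shAC007128.1 samples.

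All 6 subunits of the MCM2-7 ring rose, by unequal amounts. MCM6 at chr2:135839626-135876443 was at 38.4, 38.3 and 34.6 CPM in the shCtrl samples and 137, 141 and 153 CPM in the shAC007128.1 samples. It was the most changed of the ring, 3.87-fold higher by group means, and its log2 fold change was 1.95 ± 0.08 (SE, n = 3 per group, adjusted p = 1.94e-05). MCM3 at chr6:52264014-52284881, the least changed, was at 256, 242 and 244 CPM in the shCtrl samples and 358, 370.2 and 353 CPM in the shAC007128.1 samples, and its log2 fold change of 0.54 ± 0.06 (SE, n = 3 per group, adjusted p = 4.58e-04) was still larger than the spread between samples. MCM5 changed by 1.23 ± 0.10, MCM4 by 1.17 ± 0.07, MCM2 by 1.10 ± 0.06 and MCM7 by 0.77 ± 0.08, on the log2 scale with SE, all with adjusted p of 0.000458 or less.

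By log2 fold change, the subunits that were scarcest per length in shCtrl gained most. The gain in CPM per kb did not follow this order. The group mean went from 67.9 to 98.9 for MCM3 and from 9.58 to 22.5 for MCM5. In CPM per kb, MCM3 was at 70.3, 66.4 and 67.1 in the shCtrl samples and 98.3, 102 and 96.8 in the shAC007128.1 samples. MCM7 was at 38.2, 36.2 and 37.7 in the shCtrl samples and 68.95, 64.1 and 58.5 in the shAC007128.1 samples. MCM2 was at 25.5, 26.4 and 24.9 in the shCtrl samples and 55.9, 54.6 and 54.1 in the shAC007128.1 samples. These 3 were the highest in each sample of both groups. On the same scale MCM4 was at 17.6, 16.9 and 16.4 in the shCtrl samples and 36.3, 38.2 and 39.7 in the shAC007128.1 samples. MCM5 was at 9.48, 10.3 and 8.99 in the shCtrl samples and 24.1, 23.5 and 19.7 in the shAC007128.1 samples. MCM6 was at 9.298, 9.25 and 8.36 in the shCtrl samples and 33.2, 34.00 and 36.9 in the shAC007128.1 samples. In shCtrl MCM5 and MCM6 overlapped at the bottom of the order, and in shAC007128.1 MCM6 stood above MCM5 and overlapped with MCM4. The highest over the lowest level of the 6 was 7.56, 7.17 and 8.02 in shCtrl and 4.08, 4.31 and 4.91 in shAC007128.1. With the longest transcript as length this ratio was 7.40 to 8.28 and 3.05 to 3.53. It restates the unequal log2 fold changes of the subunits and is no separate evidence of a shift. In CPM per kb the range did not narrow. Group means ran from 8.97 for MCM6 to 67.9 for MCM3 in shCtrl, and from 22.5 for MCM5 to 98.9 for MCM3 in shAC007128.1. The mean MCM2-7 level over the mean ORC level was 3.515, 3.503 and 3.251 in shCtrl and 4.53, 4.66 and 3.68 in shAC007128.1. MCM8, a helicase of homologous recombination that is no subunit of the ring, at chr20:5950652-5998977, was at 53.4, 50.1 and 54.5 CPM in the shCtrl samples and 83.7, 87.1 and 98.7 CPM in the shAC007128.1 samples, a log2 fold change of 0.77 ± 0.09 (SE, n = 3 per group, adjusted p = 6.07e-04).

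**Figure D3:**
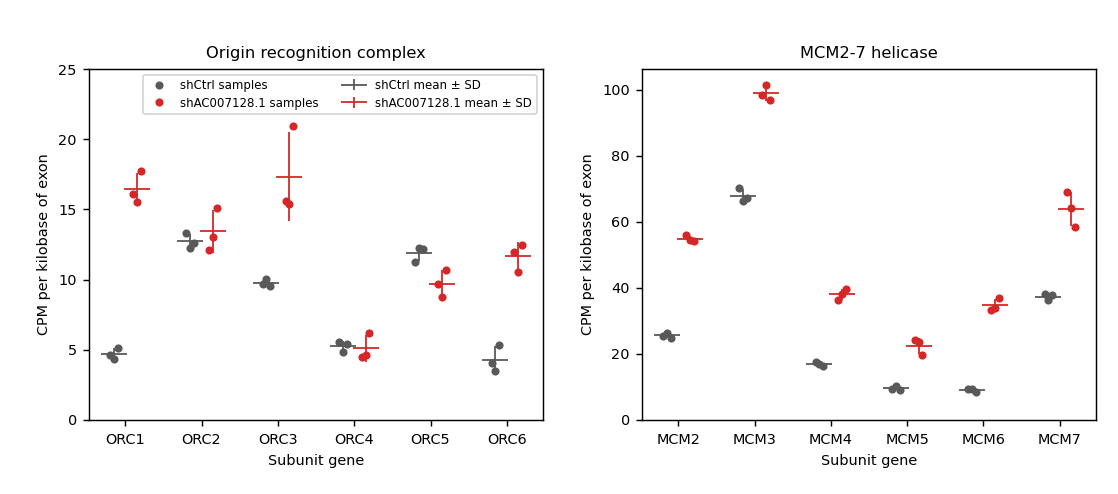
Level of the 6 ORC and the 6 MCM2-7 subunits in TMM-scaled CPM per kb of exons, one point per sample, with the mean and SD of 3 samples per group. ORC1 and ORC6 sit at a mean of 4.69 and 4.29 in shCtrl and 16.4 and 11.7 in shAC007128.1, and MCM6 moves from 8.36 to 9.30 up to 33.2 to 36.9, while ORC2 and ORC4 overlap between groups.

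The 6 genes that complete the active helicase were all called higher, with a median log2 fold change of 1.57. MCM10, which acts in helicase activation, at chr10:13161558-13211110, was at 25.6, 24.5 and 22.4 CPM in the shCtrl samples and 103, 95.5 and 111 CPM in the shAC007128.1 samples. The groups were separated by a wide gap, and the log2 fold change was 2.09 ± 0.10 (SE, n = 3 per group, adjusted p = 2.24e-05). GINS3, one of 4 GINS subunits and the least changed of the 6, at chr16:58295080-58406147, was at 22.4, 24.6 and 21.7 CPM in the shCtrl samples and 49.8, 51.01 and 58.2 CPM in the shAC007128.1 samples, a log2 fold change of 1.21 ± 0.10 (SE, n = 3 per group, adjusted p = 1.47e-04). CDC45, the subunit that joins GINS on the ring, rose by 1.53 ± 0.10. GINS1 and GINS4 both rose by 1.62, and GINS2 by 1.45 ± 0.08. All 6 therefore lay between 1.21 and 2.09 on the log2 scale, with adjusted p from 2.24e-05 to 1.47e-04.

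The firing kinases and scaffolds split by gene. TICRR, the scaffold that CDK phosphorylates at origins, at chr15:89575469-89631056, was at 19.6, 16.5 and 20.9 CPM in the shCtrl samples and 76.5, 78.5 and 91.4 CPM in the shAC007128.1 samples. This was the largest log2 fold change of the 55, at 2.11 ± 0.12 (SE, n = 3 per group, adjusted p = 4.28e-05). TOPBP1, its partner, rose by 0.81 ± 0.11. CDC7, the kinase that phosphorylates the ring, did not pass, with 51.3, 48.9 and 48.04 CPM in the shCtrl samples and 53.8, 54.4 and 62.7 CPM in the shAC007128.1 samples. Its groups did not overlap, yet the log2 fold change was only 0.21 ± 0.09 (SE, n = 3 per group, adjusted p = 0.109). DBF4, its activating subunit, rose by 0.48 ± 0.12 (adjusted p = 0.016) and passed in 12 of 14 alternative fits. Of the 2 cyclin E genes, the partners of CDK2, CCNE2 was called and CCNE1 did not pass, and the difference between them was not tested. CCNE1 at chr19:29811991-29824312 was at 2.84, 2.21 and 3.01 CPM in the shCtrl samples and 3.13, 2.86 and 2.61 CPM in the shAC007128.1 samples, a log2 fold change of 0.09 ± 0.20 (SE, n = 3 per group, adjusted p = 0.735). CCNE2 was at 5.52, 5.41 and 5.22 CPM in the shCtrl samples and 15.6, 21.3 and 18.3 CPM in the shAC007128.1 samples, with groups that did not overlap and a log2 fold change of 1.77 ± 0.15 (SE, n = 3 per group, adjusted p = 1.47e-04). CCNE2 shares 37.1 percent of its exonic bases with genes on the opposite strand, so its counts are less certain.

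Among fork protection genes CLSPN, encoding the checkpoint mediator claspin, at chr1:35720218-35769978, was at 27.7, 28.98 and 30.5 CPM in the shCtrl samples and 94.7, 92.6 and 97.2 CPM in the shAC007128.1 samples, with a log2 fold change of 1.71 ± 0.08 (SE, n = 3 per group, adjusted p = 2.24e-05). WDHD1, the human Ctf4 protein that links the helicase to polymerase alpha, rose by 1.52 ± 0.09. TIMELESS and TIPIN form a complex at the fork and changed by less, TIMELESS by 0.54 ± 0.07. TIPIN at chr15:66336191-66386746 was at 19.6, 20.4 and 19.3 CPM in the shCtrl samples and 31.5, 29.3 and 33.4 CPM in the shAC007128.1 samples, a log2 fold change of 0.67 ± 0.09 (SE, n = 3 per group, adjusted p = 0.00132).

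The sliding clamp had a larger change than each subunit of its loader, though all 6 genes rose. PCNA at chr20:5114953-5126626 was at 75.9, 74.2 and 73.2 CPM in the shCtrl samples and 222, 225 and 250.1 CPM in the shAC007128.1 samples. The means were 74.4 ± 1.39 CPM and 233 ± 15.2 CPM (SD, n = 3), and the log2 fold change was 1.64 ± 0.07 (SE, n = 3 per group, adjusted p = 2.24e-05). Per kb, PCNA was at 54.1, 52.9 and 52.2 in the shCtrl samples and 159, 160.5 and 178 in the shAC007128.1 samples, the highest per-length level among all 55 in shAC007128.1. The loader subunits rose by 0.58 for RFC1, 0.73 for RFC2, 0.93 for RFC3, 0.63 for RFC4 and 1.18 for RFC5 on the log2 scale, and only RFC5 was called. RFC2, with the largest p of the 6, at chr7:74231499-74254458, was at 52.1, 48.3 and 43.9 CPM in the shCtrl samples and 72.2, 77.9 and 88.5 CPM in the shAC007128.1 samples, a log2 fold change of 0.73 ± 0.11 (SE, n = 3 per group, adjusted p = 0.00173). No test compared the clamp with its loader.

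Of the 4 subunits of polymerase alpha-primase, which starts each strand with an RNA-DNA primer, 3 rose and PRIM1 did not pass. POLA2, the accessory subunit, at chr11:65261913-65305959, was at 19.4, 20.1 and 20.8 CPM in the shCtrl samples and 57.8, 59.8 and 61.9 CPM in the shAC007128.1 samples, a log2 fold change of 1.58 ± 0.08 (SE, n = 3 per group, adjusted p = 3.09e-05). PRIM1, the catalytic primase, at chr12:56730438-56752374, was at 36.5, 35.8 and 38.1 CPM in the shCtrl samples and 34.3, 40.8 and 49.98 CPM in the shAC007128.1 samples. Its groups overlapped and its log2 fold change was 0.18 ± 0.14 (SE, n = 3 per group, adjusted p = 0.342). PRIM1 shares 19.1 percent of its exonic bases with other genes, NACA on the same strand among them, and POLA2 shares 21.3 percent. PRIM2, the large primase subunit, rose by 1.16 ± 0.09 and the catalytic POLA1 by 0.75 ± 0.09.

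The leading and lagging strand polymerases had smaller changes, with a median of 0.57 and 1 of 6 called. POLE, the catalytic subunit of polymerase epsilon, at chr12:132623753-132687376, was at 66.4, 71.8 and 67.6 CPM in the shCtrl samples and 142, 145 and 153 CPM in the shAC007128.1 samples, a log2 fold change of 1.10 ± 0.07 (SE, n = 3 per group, adjusted p = 6.30e-05). POLE2, its second subunit, at chr14:49643555-49688422, was at 11.3, 14.3 and 12.03 CPM in the shCtrl samples and 18.8, 18.2 and 22.9 CPM in the shAC007128.1 samples, a log2 fold change of 0.67 ± 0.14 (SE, n = 3 per group, adjusted p = 0.0087). POLE3, a histone-fold subunit that also belongs to a chromatin remodeller, changed by 0.50 ± 0.06, and its level in CPM per kb was 41.1, 39.4 and 40.3 in the shCtrl samples and 56.6, 57.1 and 57.7 in the shAC007128.1 samples. The polymerase delta subunits POLD1, POLD2 and POLD3 rose by 0.63, 0.36 and 0.51. RPA1, the largest subunit of the single-strand binding protein, at chr17:1829702-1900082, was at 129, 123 and 123 CPM in the shCtrl samples and 282, 272 and 292 CPM in the shAC007128.1 samples, a log2 fold change of 1.17 ± 0.06 (SE, n = 3 per group, adjusted p = 3.61e-05). RPA2, the middle subunit, at chr1:27891524-27914746, was at 36.7, 35.01 and 38.1 CPM in the shCtrl samples and 53.5, 42.6 and 54.4 CPM in the shAC007128.1 samples, a log2 fold change of 0.45 ± 0.11 (SE, n = 3 per group, adjusted p = 0.0159), and it passed in 11 of 14 alternative fits.

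Okazaki fragment enzymes were all called higher. DNA2, a nuclease and helicase, at chr10:68414064-68472121, was at 16.3, 16.3 and 18.1 CPM in the shCtrl samples and 55.1, 53.96 and 68.2 CPM in the shAC007128.1 samples, a log2 fold change of 1.80 ± 0.12 (SE, n = 3 per group, adjusted p = 6.39e-05). LIG1, the ligase that seals fragments, at chr19:48115445-48170603, was at 47.4, 45.5 and 45.2 CPM in the shCtrl samples and 120.5, 109.7 and 99.1 CPM in the shAC007128.1 samples, a log2 fold change of 1.25 ± 0.09 (SE, n = 3 per group, adjusted p = 9.15e-05). FEN1, the flap endonuclease, rose by 1.05 ± 0.08, at the edge of a call. Of the chromatin assembly factor, CHAF1B at chr21:36385392-36419015 was at 33.8, 29.9 and 31.9 CPM in the shCtrl samples and 76.3, 80.4 and 68.1 CPM in the shAC007128.1 samples, a log2 fold change of 1.23 ± 0.10 (SE, n = 3 per group, adjusted p = 1.11e-04). CHAF1A at chr19:4402640-4445018 was at 43.9, 50.6 and 48.8 CPM in the shCtrl samples and 106, 97.98 and 77.5 CPM in the shAC007128.1 samples, with replicate 3 of shAC007128.1 the lowest of its group, and its log2 fold change of 0.97 ± 0.13 (SE, n = 3 per group, adjusted p = 0.00103) was just under the limit for a call.

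Other genes of the same pathway, in 4 lists of 54 genes, mostly moved the same way but less uniformly. Of these, 17 were called higher and 0 lower, beside 5.57 and 10.1 percent of all genes tested. By adjusted p 36 rose and 2 fell, beside 21 and 19.8 percent. The median log2 fold change was 0.59. That of the 9 checkpoint genes was 0.20, between the quartiles of all genes tested (-0.59 and 0.45). Below 0 were 7 of the 23 other fork genes and 3 of the 9 checkpoint genes. Among 11 other origin genes 9 rose, of which the 3 with the smallest p were CCNA2, the S phase cyclin, at 1.99 ± 0.10, CDC25A, the phosphatase that activates CDK2, at 2.06 ± 0.16 and DBF4B, a second activator of CDC7, at 1.52 ± 0.13. Among 23 other fork genes 13 rose, and by smallest p the first were the PCNA-binding PCLAF at 1.99 ± 0.10, the histone chaperone ASF1B at 1.96 ± 0.10 and the topoisomerase TOP2A at 1.76 ± 0.10. The 2 that fell were POLD4 at -0.79 ± 0.13 and SUPT16H at -0.25 ± 0.06, of polymerase delta and the histone chaperone FACT. Among 11 genes that turn over or restrain CDT1 or its partners, 10 rose, and the smallest p were those of DTL at 1.60 ± 0.11, SKP2 at 1.20 ± 0.10 and FBXO5 at 0.94 ± 0.10. Of 9 checkpoint genes 4 rose, with the smallest p for WEE1 at 1.64 ± 0.13, CHEK1 at 1.12 ± 0.09 and RAD1 at 0.53 ± 0.09, and ATR at 0.20 ± 0.11 did not pass.

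**Figure D4:**
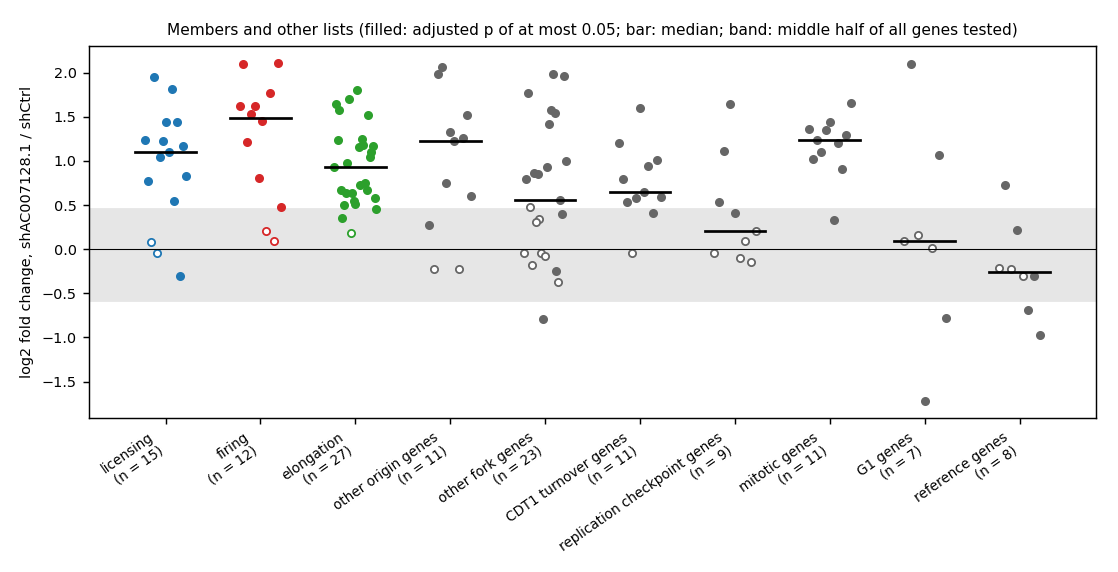
Log2 fold change of each gene in the 4 other replication lists, the mitotic, G1 and reference lists and the licensing, firing and elongation sets, with the median of each as a bar and a grey band between the quartiles of all genes tested. Filled points had an adjusted p of at most 0.05. The firing median is 1.49 and that of the checkpoint list is 0.20.

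Genes outside replication were measured beside these. All 11 mitotic genes rose, 9 of them past the limit, beside 21 and 5.57 percent of all genes tested. Their summed level went from 1248 to 1291 CPM in shCtrl to 2965 to 3211 CPM in shAC007128.1. By smallest p, the first 3 were KIF20A, a mitotic kinesin, at 1.37 ± 0.08, PLK1, a mitotic kinase, at 1.23 ± 0.07 and CENPF, a kinetochore protein, at 1.44 ± 0.09. Of the 7 G1 genes tested, CDK6 at 2.0997 ± 0.11 and CCND3 at 1.06 ± 0.22 were called higher, and CDKN1A, encoding the CDK inhibitor p21, was called lower at -1.72 ± 0.10. CCND2 fell by less than the limit, at -0.78 ± 0.06. CDKN1A was at 142, 144 and 137 CPM in the shCtrl samples and 47.2, 43.6 and 37.95 CPM in the shAC007128.1 samples, so its groups did not overlap. Of 8 reference genes 2 rose and 3 fell, with a median of -0.26, and none was called. Among them were HPRT1 at 0.73 ± 0.08 and YWHAZ at 0.22 ± 0.06 above, and SDHA at -0.69 ± 0.09 and RPL13A at -0.30 ± 0.10 below. The part of the mitotic rise in the replication genes was not tested.

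Some counts can hold reads of neighbours. In all, 9 of the 55 genes, namely CCNE2, MCM8, MCM2, GINS4, POLA2, TIPIN, PRIM1, GINS3 and RFC5, share 10 percent or more of their exonic bases with another annotated gene, and whether counting used strand is not given in the sources used here. Pseudogenes named after these genes had at most 0.172 percent of the count of the parent gene.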

How the data were processed

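RNA-seq of poly-A RNA was measured in 3 shCtrl and 3 shAC007128.1 samples of KYSE150 cells, grouped by the description each sample has in the labels. The treatment text of all 6, controls included, names shAC007128.1. The authors filtered reads for rRNA, adapters and low quality and mapped them with TopHat to hg38. The submitters' notes name CASAVA 1.8 and TopHat2 2.0.6 and also list a mouse build, and the study's methods name another TopHat version and another RNA extraction kit than the labels. The deposited values were taken as estimated counts of each Ensembl gene in whole numbers because low values piled up at multiples of 4 (761, 1355 and 993 genes at 3, 4 and 5 counts in shCtrl replicate 1). The counting program, annotation release and use of strand are not given in the sources used here. The study's own tests were run with Cuffdiff. Here the counts were fitted with edgeR 4.0.16 in R 4.3.3 (filterByExpr, TMM, glmQLFit and glmQLFTest, no block) over 19254 genes, with all 6 samples, and p-values were adjusted over all of them by Benjamini-Hochberg. The filter removed 47886 identifiers. Calls used the study's limits, adjusted p no greater than 0.05 with a change of 1 or more on the log2 scale in either direction. The SE is the log2 fold change divided by the square root of F.

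Totals were 55764405 to 78610457 counts, and TMM factors 0.967 to 1.04. No pair of replicates was a duplicate (chi-square per degree of freedom 36.04 or more). Gene positions and exon lengths came from GENCODE v44, in which 89.9 percent of identifiers were found. Promoters were RefSeq windows on GRCh38.p14. Where a gene had several, as 11 of the 55 did, the one nearest its canonical start was used. Scripts were tested on simulated data. The genes, lists and tests were chosen with earlier results of these data known. Within each role the genes with the smallest and the largest p, and any gene that passed against most of its role, were given in every sample. In each other list the 3 genes with the smallest p in each direction were named, and some single-gene values of the comparison lists are not reported here. Alternatives used DESeq2 1.42.0, limma 3.58.1 (voom), other scaling and filters, a replicate block, counts divided by 4 and leaving out each sample.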

Additional observations from a re-analysis of the deposited data

How the results depend on the processing

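Of the 55 genes, 48 kept their call and direction in all 14 alternative fits and 7 did not. The number called higher was 27 to 30 in those fits and the number called lower 0. With adjusted p alone 49 were higher and 1 lower, licensing had 1 lower, elongation 26 higher, and the other replication lists 36 higher and 2 lower, since that limit drops the fold change. The median log2 fold change of 1.05 became 0.98 with library size only, 1.01 without a filter, 1.02 where every sample had to reach 10 counts and 1.03 after division of the counts by 4, and 1.02 to 1.08 when each sample was left out; the cause was not tested. CDC6 and FEN1 fell below a log2 fold change of 1 with library size only (0.98 and 0.97), CDC6 without shAC007128.1 replicate 3 (0.9977) and FEN1 without replicate 1 (0.9992). RFC3 rose past it without shAC007128.1 replicate 2 (1.01), and CHAF1A without shCtrl replicate 2 (1.01) and without shAC007128.1 replicate 3 (1.09). Leaving out single samples took ORC2 from -0.0242 (without shAC007128.1 replicate 3) to 0.1458, ORC4 from -0.2218 to 0.0406 (above 0 without shAC007128.1 replicates 1 and 2) and CCNE1 from -0.0325 (without shCtrl replicate 2) to 0.1777, so all 3 changed sign, none past the test. The numbers of the replicates did not pair the samples (correlations of deviations 0.0306, -0.0254 and -0.0299), and with the replicate block 29 genes were called higher and 0 lower, while ORC5 had an adjusted p of 0.0835. Without its first T the E2F letters were in 66.7 percent of the windows of the genes and 13.2 percent of all promoters, and with any window of a gene the shares were 47.9 and 3.99 percent. Levels per kb shift with the length used, so the order of subunits is approximate. The AC007128.1 transcript was at only 15 to 69 counts per sample, and the cause of this low count was not tested.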

Other observations

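Replicate 3 of shAC007128.1 was the highest of its group for 35 of the 55 genes and the lowest for 16, and CDT1, MCM5, MCM7, LIG1 and CHAF1A, chosen after their values were seen, were among the lowest. The values in replicate 3 were 101 CPM for CDT1, 143 CPM for MCM5, 290.2 CPM for MCM7, 99.1 CPM for LIG1 and 77.5 CPM for CHAF1A. TOPBP1, ORC3 and DNA2 were higher in it than in replicates 1 and 2, at 189 CPM, 85.9 CPM and 68.2 CPM. These are values of 1 sample and carry no test.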
